A study of Homo sapiens with 18 samples.

Results

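The mRNA levels of 38 genes of homologous recombination and of the Fanconi anaemia repair pathway were followed in ARPE-19 cells, a spontaneously arisen human line from the retinal pigment epithelium. The genes were taken by name from a list of the pathways, with earlier results of these data known, and were found among 23411 gene symbols. All 38 passed the filter on low counts in every fit, with 39 to 3946 counts per gene and sample. The 18 samples formed 6 groups of 3, combining 2 cell lines with 3 treatments. The control line had received the lentiviral Cas9 construct but no guide RNA, and keeps an unedited NFE2L2 gene, which encodes the transcription factor NRF2. NRF2 ΔC cells came from the single edited clone C1, in which stop codons in the last exon of NFE2L2 remove the C-terminal end of NRF2. Each line was left untreated (water), exposed to 1 mM NACET, the ethyl ester of N-acetylcysteine and a precursor of cysteine and glutathione, or exposed to 0.2 mM H2O2. The sample labels give 2 h of treatment after 22 h in 1 % serum, whereas the series text and the study give 8 h after 40 h in 10 % serum, and the files do not settle which holds. The labels do not say whether samples of 1 group came from separate cultures, so the p-values measure the spread between these samples, which may be technical. Any difference between the lines is a difference between 1 clone and its control, and in such bulk samples fewer cells of a kind and less RNA per cell cannot be told apart.

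Homologous recombination repairs DNA double-strand breaks by copying the sister chromatid, and is therefore used mainly in the S and G2 phases of the cell cycle. The MRN complex and its partners trim the break, BRCA2 with PALB2 acts on the exposed strand, and XRCC2, XRCC3 and the RAD54 proteins help it find and invade its template. The Fanconi pathway handles crosslinks between the DNA strands: a core complex attaches ubiquitin to FANCD2 and FANCI, which then bring in nucleases and the recombination proteins. The kinases ATM and ATR, with CHEK2 and CHEK1 below them, report the damage to the cell cycle. Many of these genes are transcribed under E2F factors, which bind sites near the start of genes used in S phase.

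Promoter letters were read for the members from RefSeq (GRCh38.p14; 250 bases before to 50 after each start), where 34 of the 38 had an entry, the others being RAD54B, FANCI, NBN and DNA2. A match to 1 of the E2F words TTTCCCGC, TTTCGCGC, TTTGCCGC or TTTGGCGC on either strand was found in 6 of these 34 promoters (17.6 %), which were those of XRCC2, FANCA, FANCC, FANCD2, EXO1 and TOPBP1, against 3.31 % of all 35116 promoters in the table. The CCAAT box (CCAAT) was in 15 of 34 (44.1 %, all promoters 34.6 %), the CHR word of genes used in G2 and mitosis (TTTGAA or TTCGAA) in 4 of 34 (11.8 %, all 16.4 %), and the core of the NRF2 site (TGACNNNGC) in 2 of 34 (5.88 %, all 13.3 %). All were searched on both strands. Each member was read at 1 promoter, whereas the background took every promoter entry, also of genes not tested here, so the shares are not of like sets. Of the 7 members that fell with H2O2 in NRF2 ΔC cells (below), 1 held an E2F word, 2 a CHR word, 2 a CCAAT box and 0 the NRF2 core. The windows below, 30 bases each, 5′ to 3′ along the gene, show matches in the promoters of FANCC, BRIP1 and CHEK1, which fell there, and the E2F word of XRCC2, which rose with NACET in control cells. Of the 3 CCAAT boxes in the BRIP1 promoter, the one nearest the start is printed. Capitals mark the match, and none of the printed matches share letters.
FANCC, E2F word, chr9:95317863-95317892, minus strand: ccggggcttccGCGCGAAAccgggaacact
FANCC, E2F word, chr9:95317737-95317766, minus strand: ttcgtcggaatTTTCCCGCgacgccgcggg
FANCC, CHR word, chr9:95317930-95317959, minus strand: atTTTGAAcagaatatggaagaagccagcg
BRIP1, CHR word, chr17:61863749-61863778, minus strand: tatcgccggtTTCAAAagtcaaactgagac
BRIP1, CCAAT box, chr17:61863540-61863569, minus strand: agctcgctgggctATTGGgcgctgggagtc
CHEK1, CCAAT box, chr11:125626111-125626140, plus strand: actagcgcaggggATTGGagagactcctgc
XRCC2, E2F word, chr7:152676102-152676131, minus strand: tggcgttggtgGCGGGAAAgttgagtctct
A match is a run of letters and no evidence that a factor binds there.

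Libraries held 16673306 to 25951154 counts on genes. Levels are given as CPM, counts scaled to library size with TMM factors over all 18 libraries, in the order of replicates 1, 2 and 3, and differences as log2 fold changes (log2FC) with standard errors, from 3 samples against 3. A gene was called differentially expressed (a DEG) at an adjusted p under 0.05 and an absolute log2FC of at least 0.6. The p-values came from the quasi-likelihood test of edgeR and were adjusted over all genes tested by the Benjamini-Hochberg method. The study states such limits for a separate experiment with N-acetylcysteine and NACET. There it also set a minimum expression level (FPKM), which was not applied here. Its text gives no fold limit for the present libraries. NFE2L2 itself lay between 102 and 152 CPM in all 18 libraries. NQO1, a standard NRF2 target, lay at 11.3 to 22.6 CPM in NRF2 ΔC and at 170 to 1195 CPM in control libraries. Of 15 markers of retinal pigment epithelium, RPE65, TTR, DCT and TYR were at or near 0 in both lines, while MITF, OTX2, KRT8 and KRT18 were present. In the untreated libraries the summed level of 20 S phase markers was lowest in replicate 1 of each line. It was 1112 CPM in control cells, against 1710 and 1898 CPM, and 1260 CPM in NRF2 ΔC cells, against 2211 and 2680 CPM. Within a line, samples of the same number deviated together (correlations of 0.387 to 0.796, each of 12 best with its own number). A fit with the replicate number as a block is therefore given beside a result where it changed a call, and is named the blocked fit.

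Per length of transcript, the members spanned a wide range of levels in untreated control cells. H2AFX, the histone variant that ATM and ATR mark at breaks, was the highest at 55.4 ± 13.7 CPM per kilobase of transcript (RPKM; SD, n = 3). FANCL at 18.7 ± 2.39, NBN at 17.6 ± 2.09, RAD50 at 17.1 ± 0.958, RBBP8 at 16.7 ± 2.34 and FANCI at 16.6 ± 4.12 RPKM followed, and these neighbours did not differ beyond their SD. The lowest were BRCA2 at 0.883 ± 0.238, RAD51D at 1.04 ± 0.0827, FANCM at 1.09 ± 0.0529, FANCB at 1.47 ± 0.672 and BARD1 at 1.51 ± 0.391 RPKM, among which neighbours again lay within their SD. In untreated NRF2 ΔC cells H2AFX at 72.5 ± 23.3 and FANCL at 21.5 ± 4.02 RPKM were again the highest, and RAD51D at 1.16 ± 0.124 RPKM the lowest. Lengths were those of the canonical GENCODE transcript, while the annotation used for counting is not given in the sources used here.

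The clearest pattern was in NRF2 ΔC cells exposed to H2O2, where BRCA1, BRCA2, BARD1, BRIP1, FANCL, FANCC and CHEK1 were 1.74-fold (FANCC) to 2.47-fold (BRIP1) lower than in untreated cells. These 7 of 38 members (18.4 %) were all lower, and 9.81 % of the 13543 genes tested were called in this comparison, with 5.55 % of the tested genes lower. The median log2FC of the members was -0.52, against -0.01 for all genes. With the same agent in control cells RAD51B alone was called, lower (1 of 38, 2.63 %; 6.33 % of 13691 genes, 3.37 % lower), and the median was 0.08. With NACET XRCC2 and RBBP8 rose in control cells (2 of 38, 5.26 %; 2.75 % of 13696 genes, 1.39 % higher), and 34 of the 38 members had a positive log2FC, with a median of 0.26. NACET gave 0 calls in NRF2 ΔC cells (1.39 % of 13542 genes), 5 members under an unadjusted p of 0.05 (18.6 % of genes) and 0 calls by DESeq2 (4.32 %), with a median of 0.25 and 30 positive values. The 2 treatments of a line were set against the same untreated samples, so their values stand side by side and are not independent. The blocked fit called 16 members lower with H2O2 in NRF2 ΔC cells (18.7 % of genes, 11.5 % lower) and 6 members higher with NACET in control cells (7.49 % of genes, 3.65 % higher). It called 1 with NACET in NRF2 ΔC cells (8.82 %) and 1 with H2O2 in control cells (10.2 %). By adjusted p alone it called 28 members with NACET in control cells, all higher (40.7 % of genes), 21 with H2O2 in control cells, 14 of them higher (48.7 %), 22 with NACET in NRF2 ΔC cells, of which ATM alone was lower (34.0 %), and 29 with H2O2 in NRF2 ΔC cells, of which 24 were lower (46.5 %). DESeq2 called 5 members with NACET in control cells (4.24 % of genes), 1 with H2O2 in control cells (7.16 %) and 9 with H2O2 in NRF2 ΔC cells (11.7 %). At an unadjusted p under 0.05 the members numbered 12 (20.8 % of genes), 9 (30.7 %) and 19 (29.7 %) in these comparisons. For many genes all 3 treated libraries lay above, or all below, the untreated ones. With NACET in control cells this held for 12 members above and 0 below (12.8 and 13.7 % of genes). With H2O2 there it held for 6 and 2 (18 and 17 %). In NRF2 ΔC cells the counts were 7 and 0 with NACET (13.3 and 11.7 %), and 2 and 11 with H2O2 (18.3 and 15.7 %).

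Leaving out single libraries moved these counts. Shares of all genes called are not given for the fits below, so the shifts are not set against those of all genes. For H2O2 in NRF2 ΔC cells the 7 calls became 0 without replicate 2 of either group, 1 without untreated replicate 3, 7 without H2O2 replicate 3, 10 without H2O2 replicate 1 and 14 without untreated replicate 1. In the blocked fit, leaving out both samples of number 1, 2 or 3 gave 22, 8 and 13 calls. For NACET in control cells there were 2 calls without NACET replicate 3 and otherwise 0, and the blocked fit gave 4 to 10. The XRCC2 call was kept in 1 of these 6 fits without the block and lost in 5, and that of RBBP8 was lost in all 6 (log2FC 0.51 to 0.71). For H2O2 in control cells there was 1 call without untreated replicate 1, 2 without H2O2 replicate 3 and otherwise 0, and the blocked fit gave 1 to 3. The median log2FC moved as well. With H2O2 in control cells it turned from 0.08 to -0.009 without untreated replicate 1, and was 0.04 without H2O2 replicate 2 and 0.16, 0.15 and 0.13 without untreated replicate 2, H2O2 replicate 1 and H2O2 replicate 3. With NACET in NRF2 ΔC cells it went from 0.25 to 0.15 without untreated replicate 1 and 0.39 without untreated replicate 3. With H2O2 in NRF2 ΔC cells it lay between -0.70 and -0.36, and with NACET in control cells between 0.20 and 0.39.

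**Figure D1:**
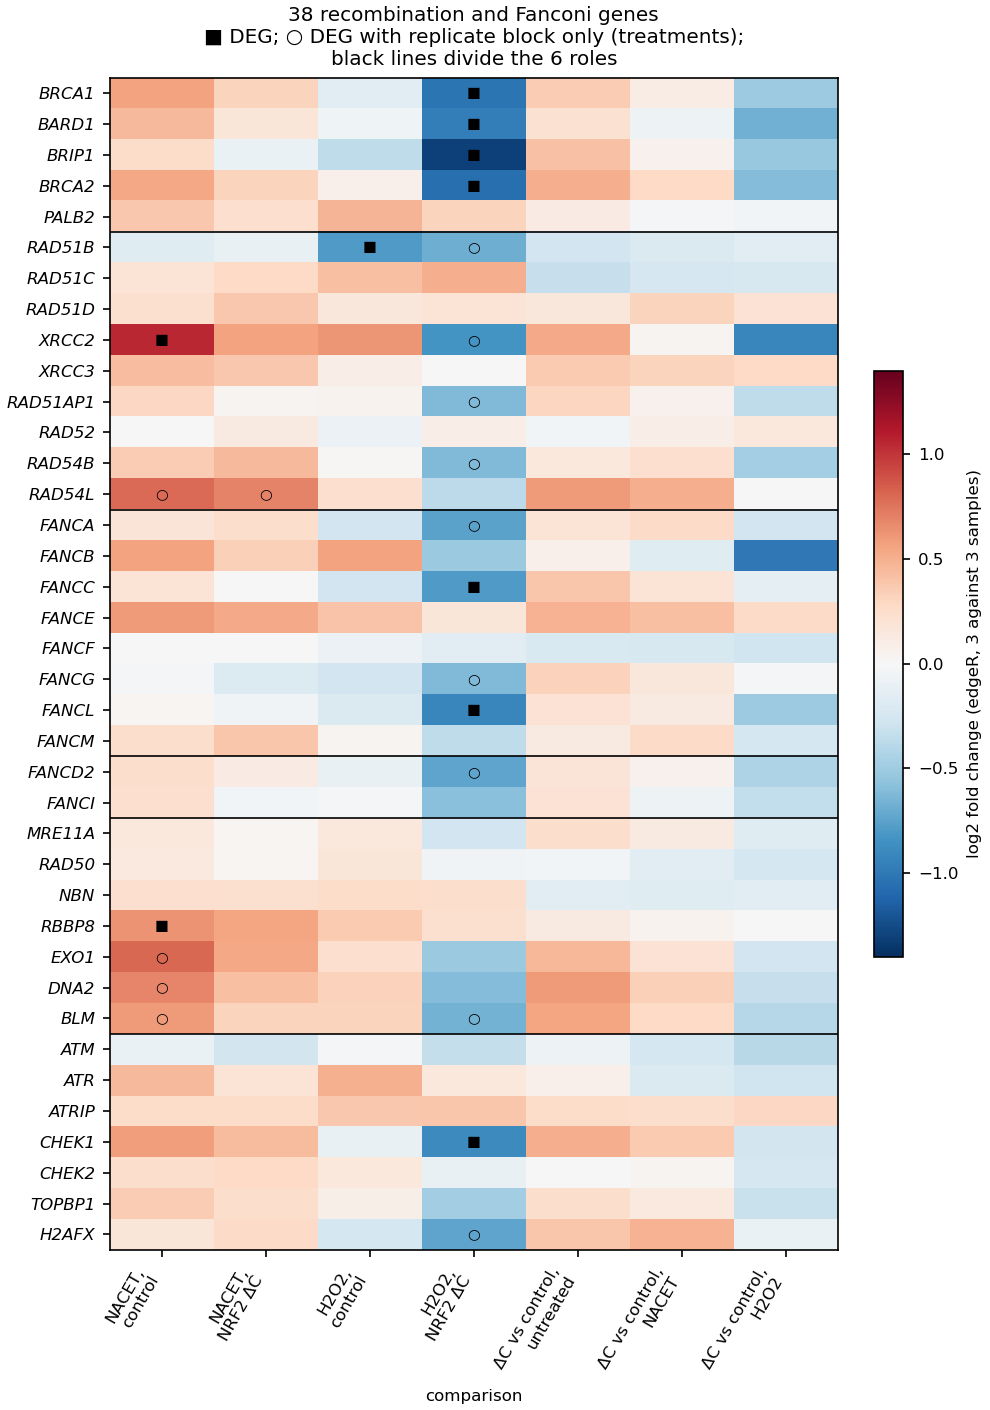
Log2 fold changes of the 38 members (rows, grouped by the 6 roles) in the 7 comparisons of 2 groups (columns), from edgeR fits of 3 against 3 samples; filled squares mark DEGs and open circles, for the treatments, those called only by the blocked fit. The 7 squares in the column of H2O2 in NRF2 ΔC cells are all on the lower side, and the NACET columns are mostly on the higher side.

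BRCA1 and BRCA2 with their partners contained 4 of the 7 members that fell with H2O2 in NRF2 ΔC cells, and PALB2 alone of the 5 was not among them. Of all genes 9.81 % were called in this comparison, and 5.55 % were called lower. BRCA1, the scaffold of the complex that starts recombination (chr17:41196312-41322262, GRCh37, minus strand), stood at 40.3, 54.5 and 65.8 CPM in untreated NRF2 ΔC cells and at 27.0, 20.7 and 32.4 CPM with H2O2. The groups did not overlap, and BRCA1 was 2.04-fold lower (log2FC -1.03 ± 0.22 (SE), edgeR adjusted p = 0.0241). Control cells held 29.2, 49.1 and 46.6 CPM untreated and 29.99, 43.1 and 39.3 CPM with H2O2, which overlapped (log2FC -0.15 ± 0.21 (SE), edgeR adjusted p = 0.668). BARD1, the partner with which BRCA1 forms a ubiquitin ligase, fell from 8.58, 9.38 and 10.9 CPM to 5.45, 3.75 and 5.80 CPM in NRF2 ΔC cells (log2FC -0.96 ± 0.22 (SE), edgeR adjusted p = 0.0265). All 3 treated libraries lay below all 3 untreated ones, whereas in control cells BARD1 went from 6.40, 10.6 and 7.84 to 5.71, 11.0 and 6.96 CPM with overlap.

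BRIP1, the helicase bound to BRCA1 and also known as FANCJ (chr17:59756500-59940920, GRCh37, minus strand), had the lowest log2FC of all members in NRF2 ΔC cells. It fell there from 25.1, 35.7 and 38.7 CPM to 14.9, 10.4 and 15.7 CPM, which is 2.47-fold lower (log2FC -1.30 ± 0.22 (SE), edgeR adjusted p = 0.0102), without overlap. In control cells it had 17.4, 31.3 and 26.2 CPM untreated and 15.4, 23.1 and 19.9 CPM with H2O2, lower in each of the 3 numbered pairs but overlapping between the groups (log2FC -0.35 ± 0.22 (SE), edgeR adjusted p = 0.319). BRCA2, a central mediator of recombination at the break (chr13:32889223-32974405, GRCh37, plus strand), fell from 11.9, 15.6 and 17.5 CPM to 8.02, 6.05 and 7.94 CPM in NRF2 ΔC cells (log2FC -1.05 ± 0.20 (SE), edgeR adjusted p = 0.0161). The highest treated library was below the lowest untreated one. The control cells showed 7.51, 13.2 and 11.0 CPM untreated and 8.60, 15.2 and 9.27 CPM with H2O2, with library 2 the highest in both groups.

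PALB2, which links BRCA1 to BRCA2, had values on the other side. It went from 20.2, 23.9 and 24.4 CPM to 30.2, 32.7 and 31.9 CPM with H2O2 in control cells, where it passed the adjusted p alone, as 7.06 % of genes did on the higher side (log2FC 0.47 ± 0.11 (SE), edgeR adjusted p = 0.0262) but stayed under the fold limit. The NRF2 ΔC values were 24.2, 23.1 and 26.9 CPM untreated and 34.3, 31.2 and 28.0 CPM with H2O2 (log2FC 0.31 ± 0.14 (SE), edgeR adjusted p = 0.188). Treated libraries were above untreated ones without overlap in both lines. With NACET none of the 5 genes was called in control cells (2.75 % of all genes) or in NRF2 ΔC cells (1.39 %). Their log2FC ran from 0.26 (BRIP1) up to 0.56 (BRCA1) among control samples and from -0.09 (BRIP1) up to 0.31 (BRCA2) among NRF2 ΔC samples. BRCA1 with NACET reached 51.8, 71.7 and 59.6 CPM in control cells, above every untreated library (log2FC 0.56 ± 0.21 (SE), edgeR adjusted p = 0.174), and 57.0, 64.3 and 80.4 CPM in NRF2 ΔC cells, which overlapped with untreated. BRIP1 with NACET had 28.8, 34.1 and 25.9 CPM in control and 27.5, 32.6 and 34.6 CPM in NRF2 ΔC cells, and BARD1 10.1, 14.1 and 9.72 and 12.2, 8.91 and 11.7 CPM. Both genes overlapped with untreated in both lines.

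**Figure D2:**
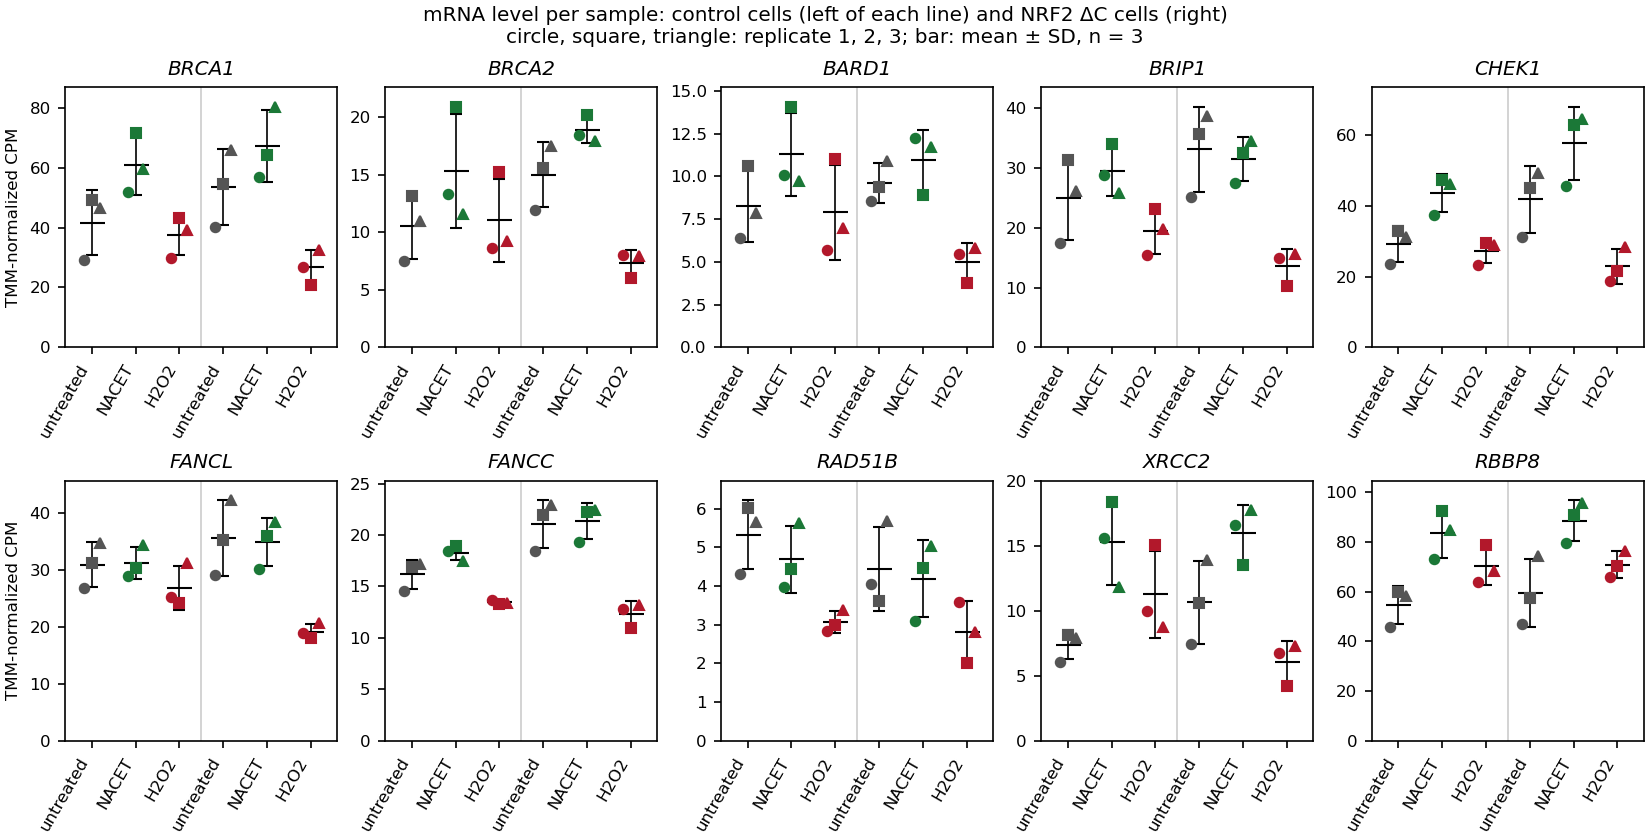
Level in each sample (TMM-normalized CPM, axes from 0) of the 10 members called in any comparison of a treatment; circles, squares and triangles are replicates 1, 2 and 3, horizontal marks the mean and bars the SD (n = 3), with control cells left and NRF2 ΔC cells right of the line in each panel. For BRCA1 the H2O2 samples of NRF2 ΔC cells lie at 20.7 to 32.4 CPM, below the 40.3 to 65.8 CPM of the untreated ones.

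Among the 9 genes that act in strand invasion, 1 of 9 was called with NACET in control cells (2.75 % of all genes), 1 of 9 with H2O2 in control cells (6.33 %) and 0 of 9 in NRF2 ΔC cells with NACET (1.39 %) or H2O2 (9.81 %). The blocked fit called 1 of 9 with NACET (8.82 %) and 4 of 9 with H2O2 (18.7 %) in NRF2 ΔC cells, and DESeq2 called 0 (4.32 %) and 2 (11.7 %) there. At an unadjusted p under 0.05 there were 3 (18.6 %) and 5 (29.7 %). XRCC2, needed for strand invasion (chr7:152341861-152373278, GRCh37, minus strand, E2F window above), rose 2.08-fold with NACET in control cells, from 6.09, 8.15 and 7.93 CPM to 15.6, 18.4 and 11.8 CPM. All 3 treated libraries were above the untreated ones (log2FC 1.05 ± 0.20 (SE), edgeR adjusted p = 0.0318). Its NRF2 ΔC values were 7.46, 10.6 and 13.9 CPM untreated and 16.6, 13.5 and 17.8 CPM with NACET, which overlapped by the third untreated library (log2FC 0.57 ± 0.23 (SE), edgeR adjusted p = 0.242). With H2O2 XRCC2 had values in opposite directions in the lines. Control cells reached 9.96, 15.1 and 8.78 CPM, all above the untreated libraries (log2FC 0.62 ± 0.22 (SE), edgeR adjusted p = 0.0991). NRF2 ΔC cells had 6.73, 4.21 and 7.26 CPM, all below the untreated ones (log2FC -0.83 ± 0.28 (SE), edgeR adjusted p = 0.0882). The second of these was called by the blocked fit.

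RAD51B, which with RAD51C, RAD51D and XRCC2 forms the BCDX2 complex, was the only member called with H2O2 in control cells. It fell from 4.31, 6.03 and 5.65 CPM to 2.83, 2.98 and 3.38 CPM, which is 1.73-fold lower (log2FC -0.79 ± 0.19 (SE), edgeR adjusted p = 0.0310), without overlap. NRF2 ΔC cells went from 4.05, 3.61 and 5.67 CPM to 3.60, 2.00 and 2.82 CPM, also without overlap (log2FC -0.68 ± 0.28 (SE), edgeR adjusted p = 0.141), a change called by the blocked fit. With NACET RAD51B had 3.98, 4.45 and 5.64 CPM in control and 3.09, 4.46 and 5.02 CPM in NRF2 ΔC cells, overlapping with untreated in both.

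RAD51C, the partner of XRCC3, was on the higher side with H2O2 in both lines. It had 24.1, 32.6 and 32.5 CPM untreated and 39.3, 39.5 and 40.1 CPM with H2O2 in control cells (log2FC 0.42 ± 0.13 (SE), edgeR adjusted p = 0.0644). The corresponding NRF2 ΔC values were 19.5, 23.6 and 28.4 and 28.2, 37.9 and 37.2 CPM (log2FC 0.51 ± 0.19 (SE), edgeR adjusted p = 0.113). Neither passed, and the control groups did not overlap whereas those of NRF2 ΔC overlapped by 1 library on each side. With NACET RAD51C had 31.8, 33.3 and 36.1 CPM in control and 23.1, 29.9 and 35.2 CPM in NRF2 ΔC cells, which overlapped.

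RAD51D, a further subunit of BCDX2, had 11.3, 9.88 and 9.84 CPM untreated, 10.9, 13.8 and 11.4 CPM with NACET and 11.6, 11.8 and 11.2 CPM with H2O2 in control cells. In NRF2 ΔC cells it had 10.2, 11.8 and 12.7, then 15.1, 14.5 and 16.2, then 12.8, 12.6 and 14.7 CPM. The NACET libraries of NRF2 ΔC cells lay above the untreated ones, and the other treated groups overlapped with untreated. XRCC3 lay at 21.5 to 41.5 CPM over the 9 control and 23.6 to 52.5 CPM over the 9 NRF2 ΔC libraries. With H2O2 it had 22.6, 28.8 and 33.4 CPM in control and 28.5, 33.6 and 41.7 CPM in NRF2 ΔC cells, with overlap, and its log2FC were 0.09 and -0.01. RAD52, an annealing protein, had replicate 1 as the highest library in all 6 groups. Its control values were 22.3, 14.7 and 19.3 CPM untreated, 21.7, 15.2 and 18.6 CPM with NACET and 20.3, 14.4 and 18.5 CPM with H2O2, and its NRF2 ΔC values 21.6, 17.2 and 15.9, then 23.8, 19.9 and 16.9, then 23.4, 16.8 and 19.2 CPM. None of its 4 treatment log2FC was beyond 0.13 or -0.08.

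RAD54L, a motor protein that acts during strand invasion, had the next largest NACET response of this group. Its values were 11.8, 20.6 and 21.7 CPM untreated and 24.1, 33.0 and 35.8 CPM with NACET in control cells (log2FC 0.79 ± 0.24 (SE), edgeR adjusted p = 0.116), without overlap. The NRF2 ΔC libraries held 16.5, 28.0 and 37.5 CPM and 32.0, 45.2 and 58.0 CPM (log2FC 0.70 ± 0.31 (SE), edgeR adjusted p = 0.276), higher in each numbered pair but overlapping. The blocked fit called both. With H2O2 RAD54L had 15.6, 24.5 and 23.4 CPM in control and 14.2, 19.2 and 30.7 CPM in NRF2 ΔC cells. RAD51AP1, a recombination factor, had a log2FC of -0.62 and RAD54B, a relative of RAD54L, of -0.61 with H2O2 in NRF2 ΔC cells, and both were called lower by the blocked fit. Their log2FC in control cells were 0.05 and 0.01. Over the 18 libraries RAD51AP1 lay at 12.1 to 31.0 CPM and RAD54B at 8.52 to 25.3 CPM.

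Of the 8 genes of the Fanconi core complex, FANCL and FANCC fell with H2O2 in NRF2 ΔC cells (2 of 8, 9.81 % of all genes), and none was called in control cells with either agent. FANCL, the ubiquitin ligase of the complex (chr2:58386378-58468545, GRCh37, minus strand), fell from 29.1, 35.3 and 42.4 CPM to 18.9, 18.0 and 20.6 CPM, which is 1.89-fold lower (log2FC -0.92 ± 0.17 (SE), edgeR adjusted p = 0.0148). The 3 treated libraries lay close together and below all untreated ones. In control cells the levels were 26.9, 31.2 and 34.8 CPM untreated and 25.2, 24.1 and 31.3 CPM with H2O2, overlapping (log2FC -0.20 ± 0.14 (SE), edgeR adjusted p = 0.369). FANCC, a core subunit whose promoter windows are shown above (chr9:97861336-98189078, GRCh37, minus strand), fell from 18.5, 21.9 and 22.9 CPM to 12.8, 11.0 and 13.2 CPM (log2FC -0.80 ± 0.16 (SE), edgeR adjusted p = 0.0190). Control cells had 14.5, 16.9 and 17.1 CPM untreated and 13.7, 13.3 and 13.3 CPM with H2O2, also without overlap but within a smaller difference (log2FC -0.27 ± 0.11 (SE), edgeR adjusted p = 0.151).

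FANCB, the X-linked core subunit, had low and scattered values. Control cells had 2.67, 6.65 and 4.01 CPM untreated and 5.48, 8.66 and 5.34 CPM with H2O2 (log2FC 0.56 ± 0.33 (SE), edgeR adjusted p = 0.291). NRF2 ΔC cells had 4.49, 4.30 and 5.16 CPM untreated and 4.78, 2.103 and 3.03 CPM with H2O2 (log2FC -0.52 ± 0.29 (SE), edgeR adjusted p = 0.265). Neither passed, and every H2O2 library of NRF2 ΔC cells lay below every H2O2 library of control cells. FANCA and FANCG, subunits that bind each other, were on the lower side with H2O2 in both lines without a call. FANCA had 30.9, 43.9 and 52.0 CPM untreated and 26.4, 38.2 and 40.0 CPM with H2O2 in control cells, and 32.6, 53.6 and 59.2 against 23.0, 23.8 and 41.1 CPM in NRF2 ΔC cells. FANCG had 20.0, 29.5 and 34.9 against 18.3, 24.3 and 27.3 CPM in control and 23.6, 37.5 and 44.9 against 16.5, 21.8 and 31.5 CPM in NRF2 ΔC cells. The log2FC in NRF2 ΔC cells were -0.74 and -0.62, and both were called by the blocked fit. With NACET FANCG had 22.1, 29.2 and 31.0 CPM in control and 23.8, 31.5 and 38.8 CPM in NRF2 ΔC cells, overlapping with untreated in both.

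FANCE, which contacts FANCD2, was higher with NACET in each numbered pair of both lines: 5.42, 7.47 and 8.52 CPM untreated and 8.16, 10.7 and 13.2 CPM with NACET in control cells, and 5.36, 11.9 and 12.6 against 10.7, 16.2 and 17.2 CPM in NRF2 ΔC cells. The groups overlapped (edgeR adjusted p = 0.182 and 0.428). With H2O2 FANCE had 7.01, 10.2 and 10.8 CPM in control and 6.88, 14.6 and 12.6 CPM in NRF2 ΔC cells, with overlap between the lines. FANCF, an adaptor subunit, lay at 9.44 to 15.9 CPM over the 18 libraries. Untreated it had 14.0, 13.1 and 11.9 CPM in control and 11.1, 12.6 and 9.91 CPM in NRF2 ΔC cells, and with NACET 15.9, 11.6 and 11.4 and 10.7, 13.1 and 10.3 CPM, and the lines overlapped in both. FANCM, the translocase that recruits the complex to DNA, lay at 5.54 to 11.7 CPM. It had 7.38, 8.10 and 7.93 CPM untreated and 9.15, 9.42 and 8.93 CPM with NACET in control cells, and 7.46, 7.79 and 10.4 against 11.7, 10.7 and 11.5 CPM in NRF2 ΔC cells. The NACET libraries of both lines lay above the untreated ones, without a call (edgeR adjusted p = 0.295 and 0.267).

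FANCD2 and FANCI, which the core complex modifies, were not called in any comparison without the block. With H2O2 in NRF2 ΔC cells FANCD2 had 31.3, 44.4 and 60.6 against 24.1, 21.7 and 36.9 CPM (log2FC -0.74 ± 0.28 (SE), edgeR adjusted p = 0.112). FANCI had 68.1, 85.2 and 119 against 53.8, 54.1 and 75.9 CPM (log2FC -0.59 ± 0.23 (SE), edgeR adjusted p = 0.123). Both were lower in each numbered pair, both groups overlapped, and the blocked fit called FANCD2. In control cells the 2 genes had log2FC of -0.11 and -0.03.

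The genes of end resection were on the higher side with NACET in both lines, where all 7 had a positive log2FC. With H2O2 all 7 were positive in control cells too (median 0.255, against 0.595 with NACET there), and 2 of 7 in NRF2 ΔC cells. RBBP8 encodes CtIP, the partner of the MRN nuclease that starts trimming (chr18:20378224-20606451, GRCh37, plus strand). It rose from 45.7, 59.8 and 58.1 CPM to 73.0, 92.5 and 84.7 CPM with NACET in control cells, without overlap (log2FC 0.62 ± 0.14 (SE), edgeR adjusted p = 0.0492). In NRF2 ΔC cells the values were 47.1, 57.4 and 74.1 CPM and 79.4, 90.7 and 95.7 CPM, also without overlap (log2FC 0.55 ± 0.17 (SE), edgeR adjusted p = 0.143). With H2O2 RBBP8 had 63.7, 78.6 and 68.2 CPM in control and 65.7, 70.3 and 76.4 CPM in NRF2 ΔC cells, and neither was called. EXO1 and DNA2, the nucleases of long resection, had similar NACET values. EXO1 went from 12.6, 22.6 and 25.3 CPM to 26.9, 40.9 and 37.2 CPM in control cells (log2FC 0.81 ± 0.26 (SE), edgeR adjusted p = 0.132). DNA2 went from 7.73, 11.9 and 9.07 CPM to 12.7, 18.1 and 14.9 CPM (log2FC 0.68 ± 0.20 (SE), edgeR adjusted p = 0.0989). All NACET libraries of both genes were above the untreated ones, and the blocked fit called both, as it did BLM (log2FC 0.59 ± 0.28 (SE)).

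In NRF2 ΔC cells EXO1 had 17.0, 28.6 and 37.9 CPM untreated, 30.5, 39.1 and 53.9 CPM with NACET and 14.6, 17.0 and 27.6 CPM with H2O2, and DNA2 8.97, 16.1 and 18.3, then 16.9, 19.1 and 23.0, then 9.51, 8.57 and 10.8 CPM. Library 1 was the lowest untreated one for both genes, so that the H2O2 groups overlapped with untreated. BLM, the helicase that works with both nucleases and dissolves joint molecules, had 9.56, 15.7 and 20.1 CPM untreated and 7.45, 9.34 and 12.3 CPM with H2O2 (log2FC -0.66 ± 0.29 (SE), edgeR adjusted p = 0.167), lower in each pair and called by the blocked fit. In control cells BLM had 5.96, 12.1 and 12.8 CPM untreated and 9.78, 14.8 and 13.5 CPM with H2O2, higher in each pair. With NACET BLM had 12.4, 17.6 and 16.2 CPM in control and 14.6, 20.5 and 22.2 CPM in NRF2 ΔC cells, higher than untreated in each pair and overlapping in both lines. No gene of the MRN complex was called. MRE11A lay at 28.5 to 43.3 CPM, RAD50 at 119 to 168 CPM and NBN at 70.3 to 105 CPM over the 18 libraries. NBN was higher with H2O2 in each pair of both lines, with 76.7, 92.3 and 74.7 CPM untreated and 95.1, 104 and 91.1 CPM treated in control libraries, and 71.3, 70.3 and 77.5 CPM untreated and 93.1, 93.5 and 77.8 CPM treated in NRF2 ΔC libraries. Its log2FC of 0.26 and 0.24 did not pass.

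In damage signalling, CHEK1 fell with H2O2 in NRF2 ΔC cells and was the only 1 of 7 genes called (9.81 % of all genes). CHEK1, the kinase that holds the cell cycle below ATR (chr11:125495058-125546150, GRCh37, plus strand), fell from 31.2, 45.0 and 49.3 CPM to 18.6, 21.6 and 28.5 CPM (log2FC -0.89 ± 0.22 (SE), edgeR adjusted p = 0.0361). Control cells had 23.6, 33.0 and 31.3 CPM untreated and 23.3, 29.4 and 28.9 CPM with H2O2, which overlapped closely. With NACET the CHEK1 values were 37.5, 47.4 and 46.1 CPM in control cells, above all untreated libraries (log2FC 0.59 ± 0.15 (SE), edgeR adjusted p = 0.0787), and 45.7, 62.8 and 64.6 CPM in NRF2 ΔC cells. ATR, the kinase that answers exposed single strands, had 47.8, 50.9 and 41.8 CPM untreated and 72.0, 71.2 and 55.6 CPM with H2O2 in control cells. It passed the adjusted p there without reaching the fold limit (log2FC 0.50 ± 0.13 (SE), edgeR adjusted p = 0.0362). ATR in NRF2 ΔC cells had 54.4, 45.7 and 47.3 against 72.9, 47.0 and 46.1 CPM, where library 1 was higher and the others about level.

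ATRIP, the partner of ATR, was higher with H2O2 in each pair of both lines. Control libraries had 11.0, 13.1 and 16.1 CPM untreated and 15.4, 17.8 and 18.7 CPM treated, and NRF2 ΔC libraries 12.2, 18.6 and 17.2 CPM untreated and 15.2, 25.8 and 23.1 CPM treated, without a call (edgeR adjusted p = 0.147 and 0.298). ATM, the kinase of double-strand breaks, varied more between replicate numbers than between treatments: 97.2, 84.4 and 57.3 CPM untreated, 93.7, 78.7 and 49.8 CPM with NACET and 96.1, 83.5 and 56.8 CPM with H2O2 in control cells. In NRF2 ΔC cells it had 107, 61.2 and 58.3, then 95.3, 49.8 and 45.4, then 104, 38.4 and 41.1 CPM, with library 1 the highest in every group of both lines. H2AFX, the histone that marks breaks, had 72.6, 137 and 136 CPM untreated and 51.7, 68.4 and 90.8 CPM with H2O2 in NRF2 ΔC cells, lower in each pair (log2FC -0.73 ± 0.28 (SE), edgeR adjusted p = 0.117) and called by the blocked fit. Its control values were 63.5, 96.4 and 105 and 62.1, 84.0 and 76.5 CPM. TOPBP1, the activator of ATR, had a log2FC of -0.48 and CHEK2, the kinase below ATM, of -0.10 in NRF2 ΔC cells, and 0.09 and 0.14 in control cells. TOPBP1 lay at 58.0 to 112 CPM and CHEK2 at 10.9 to 22.6 CPM over the 18 libraries.

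Whether H2O2 acted differently on the members in the 2 lines was tested as the interaction of treatment and line over 12 samples, called at an adjusted p under 0.05. Without a block 0 of 38 members were called by edgeR and 0 by DESeq2 (0.503 % of genes), 13 members had an unadjusted p under 0.05 (5.76 % of genes), and 3 of 13987 genes were called (0.0214 %; 1 higher, 0.00715 %, and 2 lower, 0.0143 %). A block by replicate number across both lines, planned beforehand, called 3 of 38 members. The share of all genes called by that fit is not given here, so its count has no background beside it. With a block by number within each line, chosen after seeing the data, 18 of 38 members (47.4 %) were called. All 18 had a lower response in NRF2 ΔC cells, against 6.91 % of genes called, 4.49 % lower and 2.42 % higher. The largest difference was that of XRCC2, at -1.41 ± 0.25 (SE) on the log2 scale (edgeR adjusted p = 0.00201 with the block and 0.383 without). It was followed by FANCB at -1.11 ± 0.27 (SE), BRCA2 at -1.09 ± 0.20 (SE) and BLM at -0.96 ± 0.18 (SE), whose edgeR adjusted p without the block were 0.860, 0.558 and 0.892. The other 14 were BRIP1, DNA2, BARD1, BRCA1, CHEK1, EXO1, FANCL, RAD51AP1, FANCD2, RAD54B, RAD54L, TOPBP1, FANCI and H2AFX. Leaving out both samples of 1 replicate number of 1 line gave 10 calls without control number 1 or 2 and 16 without control number 3. It gave 23, 11 and 12 without number 1, 2 or 3 of NRF2 ΔC cells. All of these calls were on the lower side. Shares of all genes called are not given for these fits. At the other end RAD52, RAD51B, RAD51C and RAD51D had differences of 0.19, 0.13, 0.11 and 0.05 without the block, and none of them was called by either fit. RAD51B, which fell in control cells, thus had a response that was not separated from that in NRF2 ΔC cells (edgeR adjusted p = 0.958, difference 0.13 ± 0.34 (SE)).

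**Figure D3:**
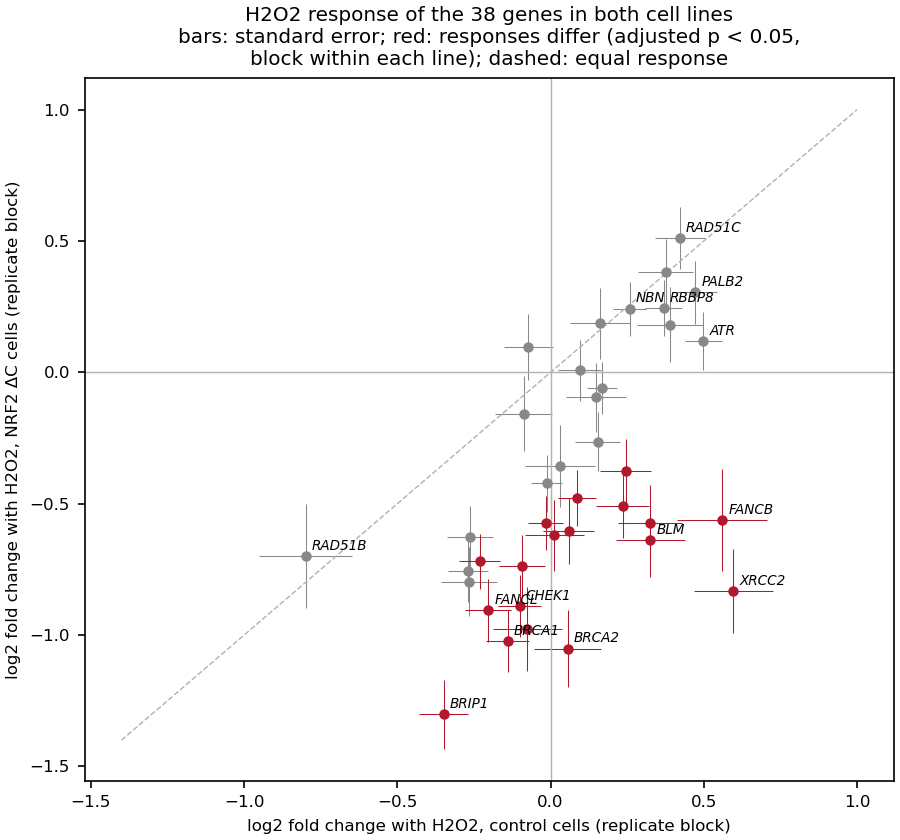
Log2 fold change with H2O2 of each of the 38 members in control cells (horizontal) and NRF2 ΔC cells (vertical), both from fits with the replicate block, with standard errors as bars; the dashed line marks equal responses and red points the 18 members whose responses differed in the fit with a block within each line. BRIP1 lies lowest at -1.30 and XRCC2 stands farthest below the dashed line, at 0.60 in control and -0.83 in NRF2 ΔC cells. The block within each line was chosen after seeing the data.

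For NACET the interaction called 0 of 38 members without a block, 0 with it and 0 by DESeq2 (0.178 % of genes), with 0 unadjusted p under 0.05 (1.63 % of genes). Of all 14002 genes 9 were called (0.0643 %, all lower in NRF2 ΔC cells), and 126 (0.9 %) with the block. The largest differences were those of XRCC2 at -0.49 ± 0.33 (SE) and BRIP1 at -0.35 ± 0.30 (SE), and their values per sample are given above. The NACET response was thus not separated between the lines for any member, which does not show that it was equal.

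Set against each other under the same treatment, the lines differed in no member by the limits of a DEG: 0 of 38 untreated (3.85 % of 13710 genes called), 0 of 38 with NACET (4.76 % of 13627) and 0 of 38 with H2O2 (5.62 % of 13580). At an unadjusted p under 0.05 there were 2, 2 and 9 members (13.7, 18.6 and 23.7 % of genes), and DESeq2 called 0, 0 and 2 (4.3, 5.46 and 7.1 %). Without treatment 30 of 38 members had a positive log2FC in NRF2 ΔC cells (median 0.21, all genes 0.01). The median became 0.11 without control replicate 1 or NRF2 ΔC replicate 3, 0.32 without control replicate 3 and 0.35 without NRF2 ΔC replicate 1. RAD54L (0.60), DNA2 (0.59), BLM (0.56) and XRCC2 (0.53) had the largest values, and RAD51C (-0.32) and RAD51B (-0.27) the lowest. With H2O2 32 of 38 had a negative log2FC (median -0.26, all genes 0.01), and 9 of 38 were lower in NRF2 ΔC cells without overlap (12.6 % of genes). FANCB was lowest, at -0.997 ± 0.32 (SE) (edgeR adjusted p = 0.104), followed by XRCC2 at -0.91 ± 0.27 (SE) (edgeR adjusted p = 0.0856). BARD1 and BRCA2 came next at -0.68 and -0.60. With NACET H2AFX had 68.2, 109 and 118 CPM in control and 97.5, 146 and 180.2 CPM in NRF2 ΔC cells, with overlap.

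Genes of related processes, from lists chosen with earlier results known, were counted in the same fits. With H2O2 in NRF2 ΔC cells 17 of 18 markers of G2 and mitosis fell (94.4 %, against 9.81 % of all genes called; median log2FC -1.83), led by KIF20A (-3.21 ± 0.38), PLK1 (-2.56 ± 0.45) and CDC20 (-2.42 ± 0.38). Of 20 replication and S phase markers 4 fell, among them the epigenetic regulator UHRF1 (-1.53 ± 0.32) and the helicase subunits MCM6 (-1.17 ± 0.31) and MCM4 (-1.03 ± 0.27). Of 32 further recombination and Fanconi genes 2 fell, among them the resolvase GEN1 (-0.69 ± 0.15), and of 12 end joining genes 1 fell, POLQ (-0.92 ± 0.22). These shares of 6.25 and 8.33 % lay below the 9.81 % of all genes called and above the 5.55 % called lower. The blocked fit called 18 of 18 G2 and mitosis markers and 8 of 20 S phase markers (7 lower and 1 higher). It called 5 of 32 further recombination genes and 1 of 12 end joining genes, all lower. Of all genes it called 18.7 %, and 11.5 % lower. Of 21 p53 targets 17 rose, led by GDF15 (3.88 ± 0.49), SESN2 (2.89 ± 0.27) and CDKN1A (2.21 ± 0.21), the inhibitor that stops the cell cycle. In control cells with H2O2 13 of 21 p53 targets rose, with CDKN1A at 1.69 ± 0.12, and 0 of 18 G2 and mitosis markers, 0 of 20 S phase markers, 0 of 32 further recombination genes and 0 of 12 end joining genes were called. At an unadjusted p under 0.05 there were 1, 4, 6 and 2 of these, DESeq2 called 1, 2, 0 and 0, and the blocked fit called 1, 3, 1 and 0 (10.2 % of all genes). With NACET in control cells 9 of 9 NRF2 targets rose, 6 of 20 p53 targets fell and RMI1, a partner of BLM, rose (0.65 ± 0.13), as 1 of 32 further recombination genes (3.12 %, against 2.75 % of all genes; 3 by the blocked fit, against 7.49 %). No S phase marker was called, with 10 of 20 at an unadjusted p under 0.05, 4 called by DESeq2 and 8, all higher, in the blocked fit. With NACET in NRF2 ΔC cells 2 of 20 p53 targets fell and 1 rose (1.39 % of all genes called). No NRF2 target or S phase marker was called there, with 4 of 9 and 2 of 20 at an unadjusted p under 0.05. The blocked fit called 8 p53 targets lower and 1 higher, and 3 S phase markers higher and 1 lower. It also called 2 NRF2 targets higher (8.82 % of genes). The median log2FC was -0.37 for p53 targets (control cells -0.34) and 0.33 for S phase markers (control cells 0.50).

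The summed level of the 38 members was 1180, 1383 and 1587 CPM in untreated NRF2 ΔC cells and 1142, 1033 and 1190 CPM with H2O2. That of the G2 and mitosis markers went from 1940, 2461 and 3235 CPM to 691, 519.5 and 991 CPM, and none of their 18 genes was without counts in any library. That of the S phase markers went from 1260, 2211 and 2680 CPM to 1095, 1622 and 1952 CPM. The p53 targets went from 2891, 2343 and 2336 CPM to 5586, 6775 and 5856 CPM. In control cells the members summed to 1058, 1322 and 1286 CPM untreated and to 1202, 1382 and 1287 CPM with H2O2, and the G2 and mitosis markers to 1372, 2395 and 2190 CPM and to 1850, 1996 and 1614 CPM. The lists of cell cycle and p53 genes thus moved in the same comparison as the members, and their part in the result was not tested.

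**Figure D4:**
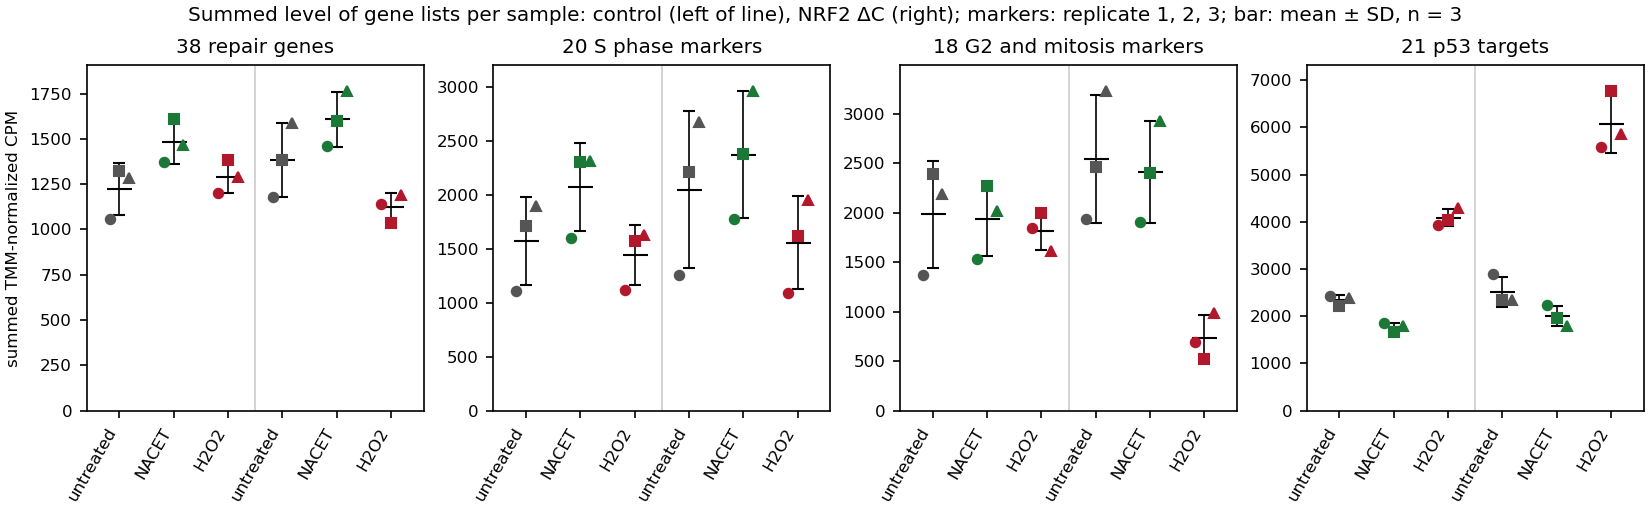
Summed TMM-normalized CPM per sample (axes from 0) of the 38 members, 20 S phase markers, 18 G2 and mitosis markers and 21 p53 targets; control cells are left and NRF2 ΔC cells right of each line, markers are replicates 1 to 3, and bars the mean and SD (n = 3). With H2O2 in NRF2 ΔC cells the G2 and mitosis markers lie at 519.5 to 991 CPM, below the 1940 to 3235 CPM of the untreated samples.

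The genomic span of the genes moved with the H2O2 response in NRF2 ΔC cells. Across the 12835 tested genes with a span in the annotation, the log2FC and the span had a Spearman correlation of -0.23, and across the 38 members of -0.29. In control cells the values were -0.03 (12957 genes) and -0.18. These describe genes of the same libraries, which are not independent replicates. In NRF2 ΔC cells the 9 members over 100 kb had a median log2FC of -0.61 and the 16 of 50 to 100 kb of -0.60, whereas the 8 of 20 to 50 kb had -0.09 and the 5 under 20 kb -0.16. All tested genes had medians of -0.20, -0.06, 0.03 and 0.10 in these classes. The 7 members that fell spanned from 51.1 kb (CHEK1) to 327.7 kb (FANCC), and RAD51B, which fell in control cells, spanned 910.4 kb. RBBP8 with 228.2 kb and ATR with 129.7 kb had log2FC of 0.23 and 0.15 in NRF2 ΔC cells, on the other side of 0. The part of gene length in the result was not tested.

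**Figure D5:**
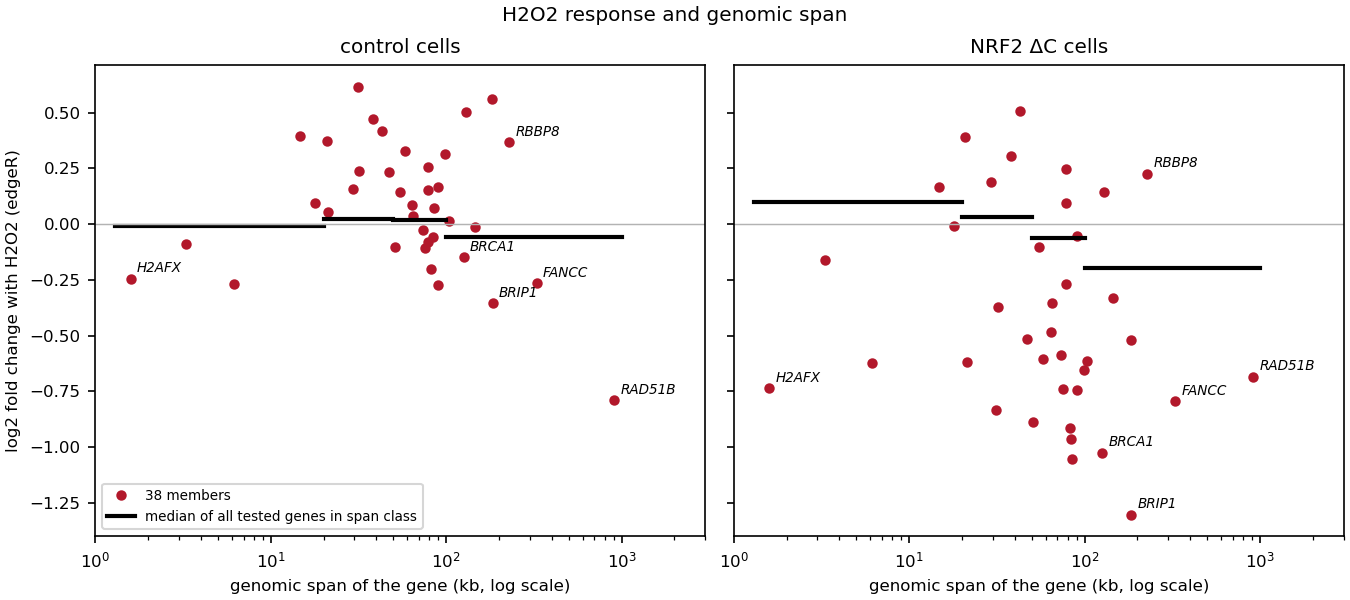
Log2 fold change with H2O2 against the genomic span of each of the 38 members (kb, log scale; points) in control cells (left) and NRF2 ΔC cells (right), with the median of all tested genes in 4 span classes as black lines. In NRF2 ΔC cells the members over 50 kb lie mostly below 0, and the median of all genes over 100 kb is -0.20.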

How the data were processed

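Per the labels and the study's methods, the authors prepared TruSeq RNA libraries, sequenced them single end on a NextSeq 500, aligned the reads to hg19 with TopHat2, and counted them per gene with HTSeq without regard to strand, so reads of overlapping or antisense genes cannot be told apart. The deposited values are raw counts per gene symbol, with rRNA genes removed. Between 25.79 and 27.86 % of the reads of a library were not assigned to a gene and stayed out of library sizes and tests. They were listed as without a feature, as ambiguous between genes or as not uniquely aligned.

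The members and the lists beside them were chosen with earlier results of these data known. Pairs of groups were each tested on their 6 samples alone with edgeR 4.0.16 (filterByExpr, TMM, quasi-likelihood test) in R 4.3.3, and the interactions on 12. DESeq2 1.42.0, RLE factors, no filter, 1 fit of all 18 samples, the replicate block, no fold limit and leaving out samples were alternatives. The study used an older version of DESeq2. The blocked fits within a line rested on the correlations given above. They leave few degrees of freedom per gene and lean on the spread shared across genes. Genes named with values per sample were those called and the 4 highest and 4 lowest log2 fold changes of each comparison, with others by range. The result of 1 gene outside the members is not reported here. No 2 replicate libraries agreed within sampling noise (lowest chi-square per degree of freedom 10.45 over 18 pairs). The edgeR fits without a block and with the block by number, and DESeq2, were run on simulated counts. This was done for H2O2 in NRF2 ΔC cells and for the difference in H2O2 response. The simulated counts held no shared effect of a replicate number, and the block within each line was not run on them.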

Additional observations from a re-analysis of the deposited data

Results flagged for a closer look

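For 18 members the H2O2 response differed between the lines by the interaction test with the replicate number as a block within each line. The limit was an edgeR adjusted p under 0.05, and none of them passed it without the block. The planned block by number across both lines called fewer members, as given below. The block within each line was chosen after seeing the data and called 6.91 % of all genes. The differences, NRF2 ΔC minus control on the log2 scale, were -1.41 for XRCC2, -1.11 for FANCB, -1.09 for BRCA2, -0.96 for BLM, -0.94 for BRIP1 and -0.89 for DNA2. They were -0.88 for BARD1, -0.87 for BRCA1, -0.77 for CHEK1, -0.73 for EXO1, -0.69 for FANCL and -0.65 for RAD51AP1. The smaller ones were -0.63 for FANCD2, -0.62 for RAD54B, -0.61 for RAD54L, -0.55 for TOPBP1, -0.54 for FANCI and -0.47 for H2AFX. In the same test 18 of 18 G2 and mitosis markers were lower and 9 of 21 p53 targets higher in NRF2 ΔC cells. Of all genes 4.49 % were called lower and 2.42 % higher. Lower too were 5 of 20 S phase markers, 7 of 32 further recombination genes, 3 of 12 end joining genes and 6 of 9 NRF2 targets. The part of these lists in the result was not tested.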

How the results depend on the processing

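No member called by either edgeR fit turned its direction under the alternatives run. The median log2FC over the members changed with single libraries as given above. With DESeq2 the number of members called was 5 for NACET in control cells and 2 for NRF2 ΔC against control cells with H2O2, and 1 fit of all 18 samples gave 1 there. Without the fold limit H2O2 in control cells gave 3. With the replicate block the counts were 6 for NACET and 1 for H2O2 in control cells, 1 for NACET and 16 for H2O2 in NRF2 ΔC cells, 2 (11.2 % of genes) for NRF2 ΔC against control cells with H2O2, and 3 for the difference in H2O2 response, or 18 with the block within each line. The block without the fold limit gave 28, 21, 22 and 29 for the 4 comparisons of a treatment in the order just given. Between the lines same-numbered samples correlated at -0.296 to 0.681, and 6 of 9 were best with their own number. Those of number 1 (0.601 to 0.681) and number 3 (0.412 to 0.601) all were, and those of number 2 (-0.296 to -0.018) were not. Leaving out 1 sample gave 0 to 2 calls for NACET and 0 to 2 for H2O2 in control cells, 0 for NACET and 0 to 14 for H2O2 in NRF2 ΔC cells. Between the lines it gave 0 to 3 untreated, 0 with NACET and 0 to 3 with H2O2, the highest in both without NRF2 ΔC replicate 1, and 0 for both interactions. Leaving out a replicate number in the blocked fits gave 4 to 10, 1 to 3, 1 to 5 and 8, 13 or 22 calls in the same order of treatments, and 10, 10, 11, 12, 16 or 23 for the difference in H2O2 response with 0 for that in NACET response. The cause of these shifts was not tested, and shares of all genes are not given for the fits with samples left out. The replicate block within each line, the block without the fold limit and the block without a replicate number were chosen after seeing the data. With 39 counts at the lowest, depth limits the precision of the least expressed members, FANCB and RAD51B among them.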
